A study of Mus musculus with 9 samples.

Results

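The tropomyosin family is encoded in the mouse by 4 genes, Tpm1, Tpm2, Tpm3 and Tpm4. They were taken as every probe set that the platform annotation assigns to exactly 1 of these symbols, which gave 10 of 36701 probe sets and 4 of 15964 named genes. Tpm1 had 5 of the probe sets, Tpm2 and Tpm3 had 2 each, and Tpm4 had 1. The cells were C2C12, a mouse skeletal muscle cell line whose myoblasts fuse into myotubes when serum is lowered, kept at 37 °C for 5 days under 2% horse serum, the medium used for differentiation. Their total RNA, at 2.0 µg per µl on every label, was hybridised to 9 Affymetrix arrays, 3 each of the designs MG_U74Av2, MG_U74Bv2 and MG_U74Cv2. Apart from shared controls, the 3 designs carry different probe sets, so each tropomyosin probe set was read on 3 arrays. There was 1 condition and no undifferentiated sample, so the arrays show whether and how reproducibly a gene gave signal, not whether it changed. Nothing in the labels sets the replicates apart as cultures of their own. The p-values therefore measure only spread between these arrays, in signal and in the background limit defined below, which may be technical.

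Tropomyosins are coiled-coil proteins that pair and join head to tail into cables along the actin filament. In striated muscle the cable and the troponin complex together gate the access of myosin to actin in response to calcium. Outside the sarcomere other tropomyosins mark and stabilise particular actin filaments of the cytoskeleton. Alternative promoters, internal exons and last exons give most of the genes several products, so a muscle and a cytoskeletal form can come from one gene. RefSeq lists 10 curated transcripts for Tpm1, 3 for Tpm2, 7 for Tpm3 and 1 for Tpm4. Which of them a probe set reads is not stated in the annotation, so the values below belong to probe sets and are not split by isoform.

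All 4 genes gave signal above background, Tpm1 on all 3 designs and the other 3 genes on MG_U74Av2, the design that holds all their probe sets. Each array was given a background limit, the 95th percentile of controls whose target RNA the sample was taken to lack. Control families with a median above the design's median signal were left out, which lowered the limit on every array. With none left out, the limits of MG_U74Av2 would be 1413, 1300 and 1719, and 23.4% of all named genes would be above the limit. The limit used was 206, 280 and 256 signal units on replicates 1, 2 and 3 of MG_U74Av2. It was 498, 430 and 963 on MG_U74Bv2, and 1034, 725 and 786 on MG_U74Cv2. A probe set counted as above the limit when it exceeded it on all 3 of its arrays, which 6 of the 10 tropomyosin probe sets did. The background shares were 58.2% of all probe sets on MG_U74Av2, 43.8% on MG_U74Bv2 and 31.6% on MG_U74Cv2. On MG_U74Av2 4 of 6 tropomyosin probe sets were above the limit, on MG_U74Bv2 1 of 3, and on MG_U74Cv2 1 of 1. By genes, 4 of 4 had at least 1 probe set above the limit, against 62.0% of all named genes. That share depends on how many probe sets a gene has. It was 48.0% for genes with 1 probe set, 70.7% for genes with 2 and 94.7% for genes with 5, so a signal from Tpm1, with 5, stood close to what any such gene gave. With bulk RNA, fewer cells of a type and less RNA per cell cannot be told apart in any of these signals.

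**Figure D1:**
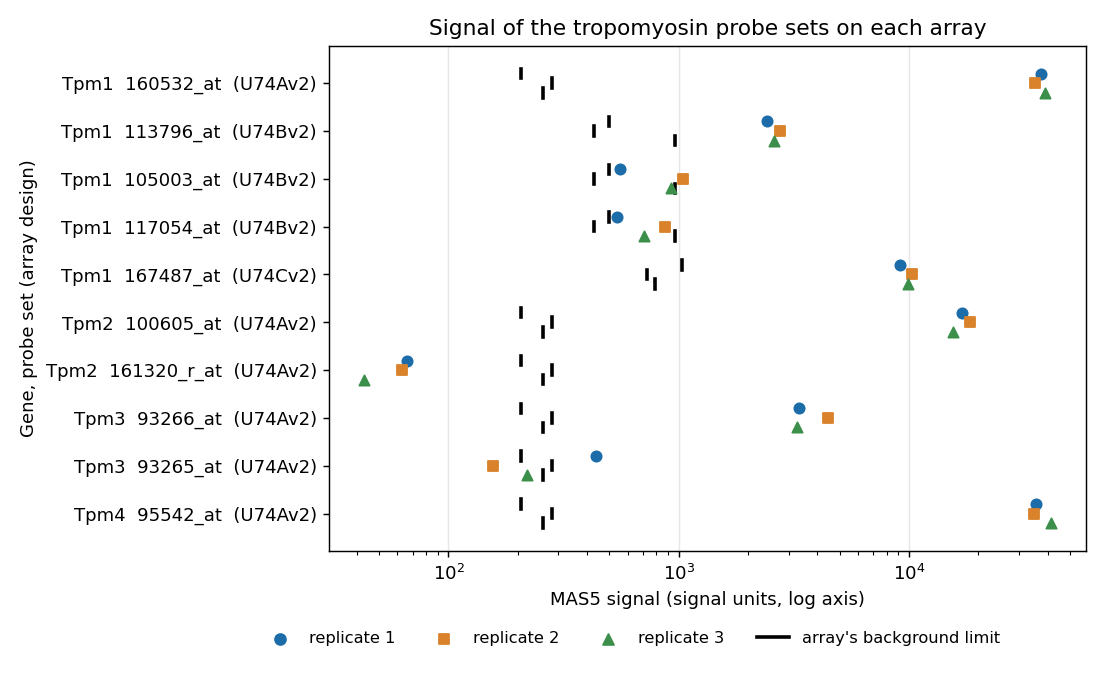
MAS5 signal of each tropomyosin probe set on its 3 arrays (points, one shape per replicate; log axis) with the background limit of the same array (black bar). 6 probe sets lie right of their bars on all 3 arrays, 3 straddle them (Tpm1 105003_at and 117054_at, Tpm3 93265_at), and Tpm2 161320_r_at lies left of them on all 3.

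Tpm1, the alpha-tropomyosin gene, makes the main tropomyosin of fast skeletal and cardiac muscle and also several cytoskeletal forms. Its probe set on MG_U74Av2, 160532_at, had signals of 37291, 35334 and 39107 on replicates 1, 2 and 3. The mean was 37244 ± 1887 (SD, n = 3), and each array placed it between the 99.30th and 99.37th percentile of its probe sets. This was 153 ± 27.6 times the limit (SD, n = 3), and the log2 multiple of 7.24 ± 0.23 (SE) passed the test against the limit (limma, Benjamini-Hochberg adjusted p = 5.70e-07). By the same test 55.8% of all probe sets of the design lay higher than the limit.

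On MG_U74Cv2 the Tpm1 probe set 167487_at read 9112, 10258 and 9879. It lay at 11.8 ± 2.7 times the limit of that design (SD, n = 3), between the 95.96th and 96.58th percentile (limma, adjusted p = 0.000463; 25.7% of all probe sets there were higher). With no control family left out of the limit, its log2 multiple of 3.54 dropped to 0.40 and no longer passed (adjusted p = 0.230, limma). Of the 3 Tpm1 probe sets of MG_U74Bv2, 1 was above the limit on all 3 arrays and 2 were near it. The first, 113796_at, read 2409.7, 2741 and 2604, at 4.64 ± 1.84 times the limit (SD, n = 3; limma, adjusted p = 2.96e-05; 38.0% of the design's probe sets were higher). That p-value uses a spread pooled over the design, not the probe set's own. Under the same higher limit the log2 multiple of 113796_at was -0.44, against 2.13 here (adjusted p = 0.161, limma). So the call of Tpm1 on MG_U74Bv2 did not hold with those families kept in the limit. It held with the median signal of each array as the limit (log2 multiple 1.74, adjusted p = 0.000839, limma).

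The 105003_at probe set of Tpm1 read 558, 1042 and 928, which was 1.12, 2.42 and 0.96 times the limits of replicates 1, 2 and 3. The 117054_at probe set of Tpm1 read 541, 875 and 703, which was 1.09, 2.03 and 0.73 times the limits. Both were above the limit on replicates 1 and 2 and below it on replicate 3, whose limit of 963 was the highest of that design. Neither passed the limma test against the limit (adjusted p = 0.397 for 105003_at and 0.684 for 117054_at), and both counted as above it when replicate 3 was left out. The 5 Tpm1 probe sets thus ran between 1.28 and 153 times their limits. Among all genes with several probe sets, 55.4% likewise had some above the limit and some not. That share was not matched to genes with 5 probe sets.

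The sequence around the Tpm1 start was looked at because the gene gave signal on all 3 designs. RefSeq (GRCm38.p6) gives it 1 promoter window, of 250 bases before and 50 after the start, at chr9:67049164-67049463 on the minus strand. Capitals mark the one match to CATTCC, the MCAT motif bound by TEAD factors in muscle promoters, here read on the opposite strand.
Tpm1: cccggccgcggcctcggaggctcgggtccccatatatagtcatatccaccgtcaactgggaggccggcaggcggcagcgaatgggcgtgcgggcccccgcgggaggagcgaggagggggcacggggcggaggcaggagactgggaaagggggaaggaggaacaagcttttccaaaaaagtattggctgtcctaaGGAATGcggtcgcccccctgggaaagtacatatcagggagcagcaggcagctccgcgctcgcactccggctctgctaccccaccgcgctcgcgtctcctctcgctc
Both strands of the windows were searched for CATTCC, for CAGCTG, an E-box that myogenic factors can bind, and for the CArG box, the motif of serum response factor. CATTCC was in 1 of the 5 tropomyosin windows and in 14.7% of 32851 windows of all genes. CAGCTG was in 3 of the 5, those of Tpm2 and Tpm4 and the upstream one of Tpm3, and in 16.3% of all windows. The CArG box was in 0 of the 5 and in 1.63% of all. These are matches of letters, not measured binding, and sequences that differ from a motif by a base were not counted.

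Tpm2, the beta-tropomyosin gene, makes a sarcomeric form that partners the products of Tpm1 and Tpm3, and a smooth muscle and cytoskeletal form. Its 2 probe sets, both on MG_U74Av2, gave opposite answers. The 100605_at probe set read 16995, 18471 and 15583, with a mean of 17016.5 ± 1444 (SD, n = 3), between the 97.6th and 98.2nd percentile. It was at 69.7 ± 11.4 times the limit (SD, n = 3; limma, adjusted p = 7.26e-07).

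The second Tpm2 probe set, 161320_r_at, read 66.2, 62.6 and 42.9. It was below the limit on all 3 arrays, at 0.24 ± 0.08 times (SD, n = 3; limma, adjusted p = 0.000132), as were 28.7% of the probe sets of the design by that test. The r in its name is Affymetrix's mark for a set that could not meet all the usual rules of probe choice. It was the one tropomyosin probe set below the limit by that test.

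Tpm3, the gamma-tropomyosin gene, makes the tropomyosin of slow muscle fibres and a large group of short cytoskeletal forms. Its 2 probe sets on MG_U74Av2 also parted. The 93266_at probe set read 3331, 4432.5 and 3258, with a mean of 3674 ± 658 (SD, n = 3), between the 85.4th and 89.3rd percentile. It was at 14.9 ± 1.9 times the limit (SD, n = 3; limma, adjusted p = 2.74e-06).

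The second Tpm3 probe set, 93265_at, read 438, 156 and 220. These values were 2.13, 0.56 and 0.86 times the limits, above on replicate 1 and below on the other two. Its mean log2 multiple was 0.01 ± 0.37 (SE; limma, adjusted p = 0.986), and without replicate 1 it was -0.53 (adjusted p = 0.137). Of the 1675 genes with 2 probe sets on MG_U74Av2, 38.0% had 1 above the limit and 1 not, as Tpm2 and Tpm3 did.

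Tpm3 is the one tropomyosin gene with 2 promoter windows in RefSeq (GRCm38.p6), and both are shown since its probe sets disagreed. Both lie on the plus strand, the upstream one at chr3:90072401-90072700 and the internal one at chr3:90079271-90079570. Capitals mark the one CAGCTG match, in the upstream window, and the internal window held none of the 3 motifs.
Tpm3 upstream: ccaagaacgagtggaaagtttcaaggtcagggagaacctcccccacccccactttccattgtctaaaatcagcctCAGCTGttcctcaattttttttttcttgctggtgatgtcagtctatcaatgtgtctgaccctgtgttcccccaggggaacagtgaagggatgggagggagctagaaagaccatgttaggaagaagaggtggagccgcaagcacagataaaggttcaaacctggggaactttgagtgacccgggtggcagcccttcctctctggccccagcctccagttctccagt
Tpm3 internal: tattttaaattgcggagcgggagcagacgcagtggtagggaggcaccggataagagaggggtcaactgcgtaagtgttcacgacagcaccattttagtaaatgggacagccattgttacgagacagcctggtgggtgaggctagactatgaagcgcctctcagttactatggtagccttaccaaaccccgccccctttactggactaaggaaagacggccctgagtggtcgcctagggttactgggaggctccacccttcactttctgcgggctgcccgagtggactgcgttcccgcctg
Whether either probe set reads transcripts of one start alone was not tested.

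Tpm4 makes mainly short forms of the cytoskeleton. Its probe set 95542_at on MG_U74Av2 read 35761.5, 35045 and 41432, with a mean of 37413 ± 3499 (SD, n = 3), between the 99.28th and 99.37th percentile. It was at 153 ± 25.4 times the limit (SD, n = 3; limma, adjusted p = 5.70e-07). So the gene known for non-muscle forms gave a signal in the top 1% of its arrays, as the MG_U74Av2 probe set of Tpm1 did. Signal depends on how well the probes bind as well as on the RNA, so no order of the 4 genes by level is given.

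The replicate arrays were then compared. Over the 10 probe sets, the highest signal of the 3 arrays was between 1.11 and 2.81 times the lowest, with Tpm1 160532_at at the low end and Tpm3 93265_at at the high end. The SD of log2 signal was between 0.073 and 0.248 for the 6 probe sets above the limit, and between 0.341 and 0.759 for the other 4. The median over the 6 was 0.108, against 0.178 over all 16414 probe sets above the limit. On MG_U74Av2 the median was 0.127 over 4 tropomyosin probe sets, against 0.154 over all 7225, and 0.577 over probe sets not above the limit. These comparisons were not matched for signal, so they do not set the tropomyosins apart as more reproducible. The least reproducible of the 6 was Tpm3 93266_at, whose SD exceeded that of 75.9% of the probe sets above the limit on its design. The 3 Tpm1 probe sets above the limit had the closest replicates of the 6, with SDs above those of 16.9%, 19.5% and 10.0% of such probe sets on MG_U74Av2, MG_U74Bv2 and MG_U74Cv2.

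On MG_U74Av2 the genes did not move together from array to array. Tpm1 160532_at and Tpm4 95542_at were highest on replicate 3, by 0.07 and 0.15 on the log2 scale over their own means. Tpm2 100605_at and Tpm3 93266_at were lowest on replicate 3, at -0.12 and -0.16, and highest on replicate 2, at 0.12 and 0.29. With 3 arrays these differences have no test.

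The 4 Tpm1 probe sets of the other designs shared an order, noticed once the values were seen: highest on replicate 2 and lowest on replicate 1. On replicate 1 the MG_U74Bv2 probe sets 113796_at, 117054_at and 105003_at of Tpm1 lay at -0.10, -0.36 and -0.55 from their own log2 means, and 167487_at of MG_U74Cv2 at -0.10. The same order was seen in 13.5% of all probe sets on MG_U74Bv2 and 16.1% on MG_U74Cv2. On both designs replicate 1 had been washed on fluidics station 1 and the other two on station 2. On MG_U74Cv2 replicate 1 was also of another chip lot. The part of station and lot in this order was not tested. Over all probe sets above the limit, the median deviation on replicate 1 was 0.003 on MG_U74Bv2 and 0.008 on MG_U74Cv2. Scaling every array to the same trimmed mean keeps such medians small, so they are no test of station or lot. On MG_U74Av2, where all arrays were washed on station 1, Tpm1 160532_at was lowest on replicate 2.

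**Figure D2:**
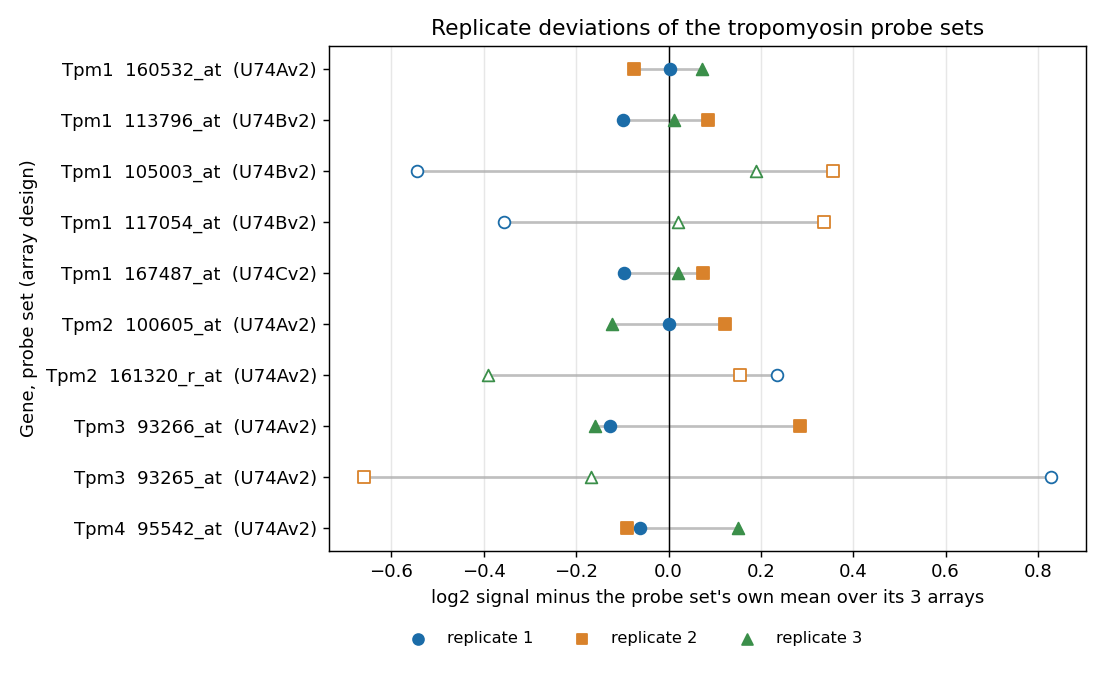
Log2 signal of each tropomyosin probe set on each replicate array minus its own mean over the 3 arrays. Filled points are the 6 probe sets above the limit on all 3 arrays and open points the other 4. The 4 Tpm1 probe sets of U74Bv2 and U74Cv2 share their order of replicates, and Tpm3 93265_at spans the widest range, from -0.66 to 0.83.

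Other genes of the actin filament, regulators of tropomyosin exons and transcription factors of contractile genes were counted from lists by role. In all, 54 of 59 measured genes (91.5%) had a probe set above the limit, against the 62.0% of all named genes. Among the 38 of them with several probe sets the share was 94.7%, against 77.1% of all such genes, and among the 21 with 1 probe set it was 85.7%, against 48.0%. The actins that tropomyosin lies on were above the limit in 6 of 6 cases, with Acta1, the skeletal muscle actin, at 298 ± 30.9 times its limit (SD, n = 3). Actb, Actc1 and Actg2 were above it only on probe sets with an f, s or i suffix. The signal of those with an f or s suffix may include related actins. The other probe set of Actg2 was at 0.24 times its limit. Of the troponin complex, which tropomyosin carries in the sarcomere, 7 of 8 genes were above the limit, with Tnni1, the slow troponin I, at 209 ± 28.8 times (SD, n = 3). Tnnc2 was among them only through a probe set with an f suffix. The exception was Tnni3, the cardiac troponin I, at 1.93, 0.90 and 1.49 times the limit.

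Of the tropomodulins and leiomodins, which bind tropomyosin at the pointed end of the filament, 3 of 4 measured genes were above the limit, all but Tmod2, the neuronal tropomodulin. Tmod3, the broadly expressed one, was at 25.8 ± 4.1 times the limit (SD, n = 3), on a probe set whose f suffix marks possible cross-hybridisation. The listed Tmod1, Tmod4 and Lmod3 were not measured, having no probe set annotated to them alone. Of the nebulin family 2 of 3 measured genes were above the limit, and Neb, nebulin itself, was not measured. Lasp1, a LIM and SH3 protein of the cytoskeleton, was at 37.6 ± 7.2 times (SD, n = 3). The exception was Nebl, the cardiac nebulette. The caldesmon and calponin family, which binds actin with tropomyosin in smooth muscle and non-muscle cells, was above the limit in 7 of 7 cases, with Tagln at 139 ± 21.2 times (SD, n = 3). Of these Cnn1, Cnn3 and Tagln3 were above it only on probe sets with an s, f or r suffix. Of the proteins that compete with tropomyosin for actin, such as the cofilins, Arp2/3 subunits and alpha-actinins, 12 of 13 measured genes were above the limit. Actr2, Arpc1b and Arpc3 were not measured. Cfl1, the non-muscle cofilin, was at 140 ± 19.2 times (SD, n = 3), and Actn2, the alpha-actinin of striated muscle Z discs, was the exception at 0.46 ± 0.07 times.

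Of the RNA-binding proteins grouped as regulators of tropomyosin exons, 9 of 10 measured genes were above the limit, and Ptbp1 was not measured. Celf2 was at 48.9 ± 6.2 times on a probe set with an r suffix (SD, n = 3). Its other probe sets were lower, at 1.56, 2.73, 5.08 and 12.6 times, the first of them not above the limit on all 3 arrays. The exception was Rbfox1, an RNA-binding protein of muscle and brain. Its 2 probe sets exceeded the limit on replicates 1 and 2 but not on replicate 3. Of the transcription factors of contractile genes, 8 of 8 were above the limit, among them Myog, the muscle regulator myogenin, at 66.7 ± 11.7 times (SD, n = 3).

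**Figure D3:**
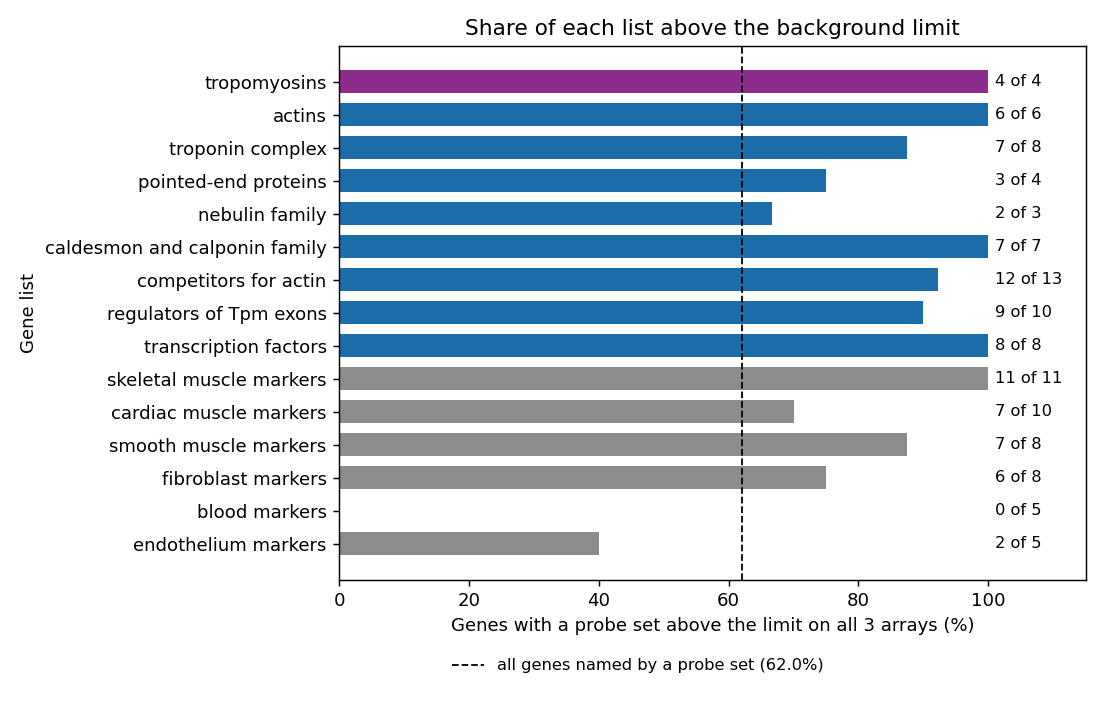
Percentage of measured genes in each list with a probe set above the background limit on all 3 arrays (bars, with counts), for the tropomyosins, the lists by role and the cell type markers. The dashed line is the 62.0% of all named genes. The bars of the tropomyosins, the actins, the caldesmon and calponin family, the transcription factors and the skeletal muscle markers reach 100%, and the blood markers have none.

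Markers of the labelled cell type were above the limit in 11 of 11 cases, 4 of the 11 being also in the lists by role. Myh8 was among them only through a probe set with an r suffix, at 5.93 ± 2.01 times (SD, n = 3), and its other probe set was at 0.63. The shares to set beside the marker counts are the 62.0% of all named genes and the 77.1% of genes with several probe sets. Smooth muscle, fibroblasts and heart muscle also make tropomyosins, and their markers were counted too. Smooth muscle markers were above the limit in 7 of 8 cases, 5 of the 8 being also in the lists by role. The exception was Myocd, the co-activator that drives smooth muscle genes. The smooth muscle myosin Myh11 had 1 of 3 probe sets above it, at 3.29 ± 1.41 times (SD, n = 3). Fibroblast markers gave 6 of 8, all but Lum and Thy1, and cardiac markers 7 of 10, all but Myh6, Nkx2-5 and Myl7. Of the cardiac markers above the limit, Nppb was near it, at 1.22 times. Hand2 was near it on replicate 3, at 1.02 times, and its other probe set was at 0.57. Gata4, Hand1, Tbx5 and Tbx20 also each had another probe set that was not above the limit on all 3 arrays. Endothelial markers gave 2 of 5, Pecam1 and Kdr, both near the limit at 1.39 and 1.31 times, and blood markers 0 of 5. The part of such cells or programmes in the tropomyosin signals was not tested.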

How the data were processed

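The authors deposited a linear intensity per probe set, computed by them with MAS5 per the submitters' processing notes. Its version and settings, and any genome build, are not given in the sources used. A 2% trimmed mean lay between 1500.3 and 1501 on every array, so each array had been scaled by itself, and designs share that mean but no normalization. The number of arrays, 3 a design, limits the precision.

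The limit used the bacterial spike-in probe sets (Trpn, Thr, Phe, Lys, Dap) and reverse-strand controls, without families whose median exceeded the design's median signal, which left 20, 20 and 17 on MG_U74Av2, MG_U74Bv2 and MG_U74Cv2. Log2 of signal over limit was fitted with an intercept alone on all probe sets of a design by limma 3.58.1 in R 4.3.3 (two-sided against 0, Benjamini-Hochberg adjustment over the design, threshold 0.05), tested beforehand on simulated data. It takes each limit as given. The spread it uses is that of signal over limit, moderated over the design, so differences between the limits of the arrays enter it. All Tpm1 probe sets of MG_U74Bv2 thus had the same SE of 0.48, though their SDs of log2 signal were between 0.09 and 0.48. Their p-values use that pooled spread, not each probe set's own spread over its 3 arrays. The probe sets of a design share the limits of its arrays, so they are not independent evidence on that spread. Other steps used Python 3.11.15. The members and lists were chosen with earlier results of these data known. Named genes were the members and, of each list by role, genes not above the limit and the one with the largest multiple of its limit, which is no order of levels; markers, and genes singled out for a suffix, were named after their values were seen. No genes were sought by likeness of pattern, with 1 condition. Alternatives were 2 other limits, quantile normalization, leaving out each replicate, and probe sets of several symbols.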

Additional observations from a re-analysis of the deposited data

Results flagged for a closer look

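A probe set outside the count of 10, 95543_at on MG_U74Av2, gave signal above the control probe sets. It is annotated to Tpm4 and to Gm7809, a pseudogene per RefSeq whose synonym there is Tpm4-ps. It read 5560, 5629 and 4552 on replicates 1, 2 and 3, at 21.6 ± 4.8 times the limit (SD, n = 3; limma, Benjamini-Hochberg adjusted p = 2.06e-06). It lay between the 90.0th and 92.0th percentile of its arrays. Which of the 2 loci it reads was not tested.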

How the results depend on the processing

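All 4 genes had a probe set above the limit under every alternative run. The probe sets above it numbered 6 of 10 with the median of each array as the limit, with quantile normalization and without replicate 1 or 2. They numbered 8 without replicate 3, 5 with no control family left out, and 7 of 11 with the probe set of several symbols. Over all probe sets the share above the limit was 44.7%, and it was 50.1% without replicate 3 and 13.2% with no control family left out. The linked genes ran between 46 and 55, with the 46 of 59 where no control family was left out, when 23.4% of all genes were above the limit, and the median replicate SD between 0.0808 and 0.137. Of 60 single probe set values, 51 kept direction and side of the threshold, 1 no longer passed the test and 8 reversed. With no control family left out, Tpm1 167487_at no longer passed the test (log2 multiple 0.40, limma adjusted p = 0.230). It still exceeded that limit on all 3 arrays and is among the 5 counted. Under that limit Tpm1 105003_at, 113796_at and 117054_at turned to -2.10, -0.44 and -2.34, and Tpm3 93265_at to -2.57, since that limit is higher on every array. With the array median, Tpm1 117054_at turned to -0.16 and Tpm3 93265_at to -1.14. Leaving out each replicate in turn, Tpm3 93265_at ran between -0.53 (without replicate 1) and 0.43, and Tpm1 117054_at between -0.17 (without replicate 2) and 0.57. These reversals touched probe sets near the limit, and 113796_at of Tpm1. No paired analysis was possible because the designs, which share replicate numbers, carry different probe sets and no conditions were compared.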
